A study of Mus musculus with 11 samples.

Results

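Hematopoietic stem cells (HSCs) taken from mice after injection of all-trans retinoic acid (ATRA) and then polyIC (pIC) were compared with HSCs of mice injected with PBS, the vehicle control. The comparison uses 6 of the 11 arrays of the study, 3 of ATRA+pIC (titled RApIC by the submitters) and 3 of PBS, chosen by sample title. The other arrays, 3 of ATRA alone and 2 of pIC alone, enter the estimate of the spread between replicates and are used where the combined treatment is set beside its parts. All 4 groups were sorted by FACS and are labelled as mouse HSCs. The sources used here do not state strain, age, genotype, doses, the interval between the injections, the time of sorting, the sorting gate, or whether each array came from a separate animal or pool. The p-values therefore reflect the spread among these arrays alone, and that spread may be technical.

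pIC is a synthetic double-stranded RNA that is sensed as viral RNA and leads cells to release type I interferon. Interferon binds its receptor, and factors that include Stat2 and Irf9 then switch on antiviral genes through the interferon-stimulated response element (ISRE); in the marrow, interferon is known to push resting HSCs into division. ATRA, the active form of vitamin A, binds nuclear retinoic acid receptors, which act on genes such as Rarb and Cyp26b1, and retinoic acid is known to help keep HSCs dormant. The combination asks what HSCs look like when the activating signal follows the retinoid.

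Expression was read as log2 RMA values, each gene through 1 probe set, for 22180 genes. A difference of 1 on this scale is a doubling, and values are compared between arrays for the same gene, not between genes. A gene was called when its limma p-value, adjusted over all genes by the Benjamini-Hochberg method, was below 0.05. Array medians over all probe sets lay between 6.19 and 6.28.

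ATRA+pIC replicate 2 lay apart from its group, so counts of genes are given over all 11 arrays and over 10 arrays without it. The values of a single gene are over 11 arrays unless 10 are named. ATRA+pIC replicates 1 and 3 scored 35.8 and 23.3 on principal component 1 (56% of the variance) and replicate 2 scored -4.5. The PBS arrays scored -19.2, -22.9 and -15.1 there. The root mean square difference from replicate 2 was 0.369 to replicate 1 and 0.304 to replicate 3, against 0.217 between replicates 1 and 3 and 0.222 to 0.269 among the PBS arrays. As a check of the labelled cell type, 1 of the 35 HSC surface and marker genes fell among the dimmest 40% of genes. So did 1 of 20 erythroid, 2 of 21 megakaryocyte, 3 of 17 progenitor and 5 of 26 endothelial markers, 9 of 23 stromal, 10 of 22 neutrophil, 10 of 28 monocyte and 10 of 28 T- and NK-cell markers, 11 of 17 B-cell markers and 17 of 20 mast-cell markers. These counts describe the signal of the probe sets and do not order the cell types.

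Because the genes that rose most are interferon genes, stretches of the promoters of some of them are shown first, with the ISRE core in capitals (GAAANNGAAA, where N is any base, or its reverse complement). They were taken from genes with a match before the start. Other interferon genes searched, such as Irf7 and Usp18, gave no stretch, for want of a promoter window or of such a match. Each stretch has 60 bases, is read 5′ to 3′ on the gene's strand and comes from RefSeq on mouse build GRCm38.p6. Isg15 (a ubiquitin-like antiviral protein) lies at chr4:156200850-156200909 on the minus strand, Ifit1 (binds foreign RNA) at chr19:34640779-34640838 plus, Apol9b (an apolipoprotein L family gene) at chr15:77729012-77729071 plus, Stat2 (signal transducer of the interferon receptor) at chr10:128270251-128270310 plus, Irgm1 (an immunity-related GTPase) at chr11:48871421-48871480 minus and Cxcl10 (a T-cell-attracting chemokine) at chr5:92349068-92349127 minus.
Isg15: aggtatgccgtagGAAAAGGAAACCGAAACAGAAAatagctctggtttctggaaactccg
Ifit1: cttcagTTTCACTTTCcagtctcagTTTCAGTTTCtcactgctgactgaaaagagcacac
Apol9b: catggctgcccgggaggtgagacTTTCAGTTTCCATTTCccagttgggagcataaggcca
Stat2: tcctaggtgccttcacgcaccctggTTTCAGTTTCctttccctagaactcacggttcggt
Irgm1: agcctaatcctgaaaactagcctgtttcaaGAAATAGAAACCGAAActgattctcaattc
Cxcl10: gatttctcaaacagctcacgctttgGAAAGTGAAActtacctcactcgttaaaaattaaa

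The stretch of Isg15 held 3 overlapping matches, those of Ifit1, Apol9b and Irgm1 held 2 each, and those of Stat2 and Cxcl10 held 1. The ISRE core was present in the 300-base promoter window (250 bases before the start) of 657 of 16990 measured genes with such a window, or 3.87%. Among genes called higher over 11 arrays it was present in 52 of 285, or 18.2%, and among those called lower in 8 of 250, or 3.2%. Without replicate 2 the shares were 92 of 958 (9.6%) for higher and 26 of 964 (2.7%) for lower genes. By gene list, 21 of 44 interferon effectors (47.7%) and 7 of 7 interferon GTPases with a window held it. The gamma-activated site TTCNNNGAA was in 9.15% of all promoters, in 13.0% of those called higher over 11 arrays and in 9.81% of those called higher over 10. A match is a description of these letters and no measure of binding.

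Over 11 arrays, 690 of 22180 genes (3.11%) were called in ATRA+pIC against PBS, 356 higher (1.61%) and 334 lower (1.51%), and 111 of the higher and 49 of the lower genes differed by more than 1 on the log2 scale. Without replicate 2, 2469 genes (11.1%) were called, 1216 higher (5.48%) and 1253 lower (5.65%), 241 and 148 of them by more than 1. The fits share 10 arrays, and 681 genes were called in both, which is 98.7% of the smaller and 27.6% of the larger list. The count over 11 arrays rested on several arrays: it was 159 without ATRA+pIC replicate 3, 171 without PBS replicate 2, 244 without ATRA+pIC replicate 1, 280 without PBS replicate 1, and 390 to 444 without PBS replicate 3 or any ATRA or pIC array. Over 10 arrays it was 663 without ATRA+pIC replicate 1. It also depended on the fit: 70 genes were called over the 6 arrays of these groups alone and 3127 over 11 arrays with array weights, which gave ATRA+pIC replicates 1, 2 and 3 weights of 0.647, 0.366 and 4.188. With any single array left out, 129 genes of the 11-array fit and 605 of the 10-array fit kept their call. A gene described below as called kept its call with each array left out in turn, unless arrays that end it are named. Of the genes described below, 68 of the 94 chosen by rule were called over 11 arrays, and all 68 were called over 10 arrays too.

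The interferon effectors, genes whose products block virus growth, rose together. Of 50 measured members, 37 rose over 11 arrays (22 without ATRA+pIC replicate 3, 24 without PBS replicate 2) and 44 without replicate 2; none fell in either fit. Among all genes 1.61% rose over 11 arrays and 5.48% over 10. Their median difference from PBS was 1.28 over 11 arrays and 1.55 over 10, where the median of all genes was -0.01. The bulk values cannot tell more RNA per cell from a change in the mix of sorted cells.

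Irf7, the transcription factor that amplifies interferon production, read 8.50, 8.71 and 8.45 in PBS and 12, 11.05 and 11.82 in ATRA+pIC replicates 1, 2 and 3. The groups were far apart, and replicate 2 was the lowest treated array. It rose by 3.07 ± 0.19 (SE; 8.38-fold, adjusted p = 0.000149) over 11 arrays and by 3.35 ± 0.10 (10.2-fold, adjusted p = 8.82e-08) over 10. Isg15 read 8.70, 8.20 and 8.48 in PBS and 12.03, 10.35 and 11.70 in ATRA+pIC, a rise of 2.90 ± 0.34 (7.46-fold, adjusted p = 0.00233) over 11 arrays and 3.41 ± 0.16 (10.6-fold) over 10. Usp18, a protease that removes Isg15 from proteins and dampens the interferon receptor, went from 8.13, 8.05 and 8.07 to 12.02, 10.13 and 11.64. Its rise was 3.18 ± 0.36 (9.05-fold, adjusted p = 0.00196), or 3.75 ± 0.11 (13.4-fold) without replicate 2. In each of these genes the lowest treated array lay above every PBS array.

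Oas2 and Oas3, synthases of the RNase L activator, rose by 3.21 ± 0.21 (adjusted p = 0.000149) and 2.65 ± 0.25 (adjusted p = 0.001). Ifit1 read 7.99, 7.83 and 7.90 in PBS and 11.44, 9.76 and 11.07 in ATRA+pIC, 7.21-fold over 11 and 10.2-fold over 10 arrays. Apol9b read 6.22, 5.98 and 6.22 against 11.94, 8.74 and 11.53, and its rise of 4.60 ± 0.64 (24.2-fold, adjusted p = 0.00549) became 5.60 ± 0.20 (48.4-fold) without replicate 2. In Apol9b replicate 2 was thus above PBS but far below the other treated arrays. Rtp4 rose by 2.10 ± 0.19 and Bst2 (tetherin, which holds budding virus at the cell surface) by 1.80 ± 0.22. Stat2 rose by 1.67 ± 0.29 (adjusted p = 0.0147), a call lost without PBS replicate 2 or ATRA+pIC replicate 3 (adjusted p = 0.0603 to 0.0695). Not every member moved: Ifi27 read 11.30, 11.07 and 11.03 in PBS and 10.38, 11.95 and 10.95 in ATRA+pIC, with replicate 2 highest, and Ifit3 differed by 0.21 ± 0.14 (adjusted p = 0.466). Ifit, Oas and Apol9 genes have close paralogs, so probe sets may share signal among them.

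**Figure D1:**
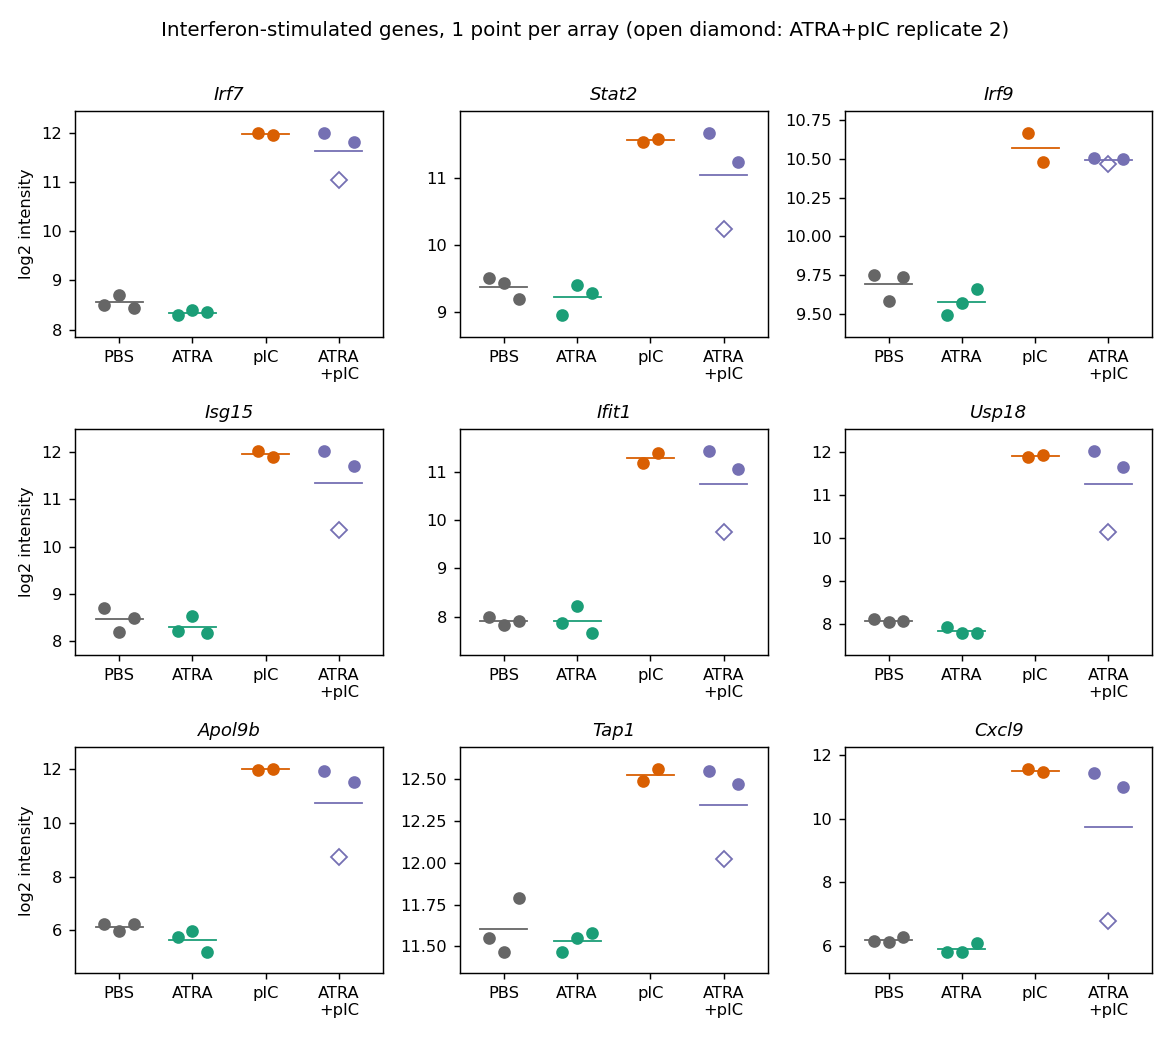
Log2 RMA values of 9 interferon genes (y axes) in each array by group (x axis): PBS, ATRA, pIC and ATRA+pIC. Points are arrays, horizontal bars are group means, and the open diamond is ATRA+pIC replicate 2, which for Irf7 reads 11.05 against 11.82 and 12 in the other ATRA+pIC arrays and for Cxcl9 reads 6.80, near PBS.

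Interferon-induced GTPases, which attack the membranes of intracellular pathogens, rose in 11 of 16 measured members over 11 arrays and in 15 of 16 over 10. Of all genes 1.61% and 5.48% rose in these fits. Leaving out single arrays brought the 11 down to 5 (ATRA+pIC replicate 3), 6 (PBS replicate 2) and 7 (PBS replicate 1 or 3). The median difference was 1.54, or 1.99 without replicate 2. Mx1, which blocks influenza virus, read 5.30, 5.43 and 5.04 in PBS and 8.53, 6.73 and 7.82 in ATRA+pIC (rise 2.44 ± 0.35, adjusted p = 0.00614; 2.92 ± 0.21 over 10 arrays). Irgm1 read 8.02, 8.20 and 8.28 against 10.07, 9.15 and 9.59 (rise 1.43 ± 0.18, adjusted p = 0.00341). The treated arrays lay above all PBS arrays in both genes. Gbp10 rose by 2.12 ± 0.24 and Iigp1 by 1.96 ± 0.24. Gbp4 rose by 2.40 ± 0.38 (adjusted p = 0.0108), which did not hold without ATRA+pIC replicate 3 (adjusted p = 0.0554).

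Sensors of viral nucleic acid rose in 9 of 19 members over 11 arrays (5 without ATRA+pIC replicate 3) and in 10 over 10 arrays. Of all genes 1.61% and 5.48% rose in these fits. Zbp1, a sensor of Z-form nucleic acid, read 7.87, 7.76 and 8.27 in PBS and 11.89, 9.69 and 11.55 in ATRA+pIC (rise 3.08 ± 0.44, adjusted p = 0.00614; 13.5-fold without replicate 2). Dhx58 and Ddx58, members of the RIG-I family, rose by 1.93 ± 0.15 and 1.43 ± 0.16. Ifi204, an interferon-inducible DNA sensor of a family with near-identical members, went from 3.30, 3.62 and 3.43 to 9.04, 5.53 and 8.10. Its rise of 4.10 ± 0.66 (adjusted p = 0.0111) lost its call without ATRA+pIC replicate 3 (adjusted p = 0.0565) and was 5.12 over 10 arrays.

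The receptors and signalling genes of the pathway held fewer called members: 4 of 22 rose and none fell over 11 arrays. Without replicate 2, 9 rose (40.9%) and 3 fell (13.6%), and 5 rose and none fell when ATRA+pIC replicate 1 was left out too. The 3 falls became 1 without ATRA replicate 1 or any single PBS array. Of all genes 1.61% rose and 1.51% fell over 11 arrays, and 5.48% and 5.65% over 10. The 4 that rose over 11 arrays were Irf7, Usp18, Stat2 and Irf9. Irf9, the DNA-binding part of the interferon-activated complex, read 9.75, 9.58 and 9.74 in PBS and 10.51, 10.47 and 10.50 in ATRA+pIC, a rise of 0.80 ± 0.08 (1.75-fold, adjusted p = 0.00135). The 3 treated arrays had nearly the same value of Irf9, replicate 2 included. Irf1, a factor more strongly tied to interferon gamma, read 8.37, 8.33 and 8.44 in PBS and 8.82, 8.23 and 8.70 in ATRA+pIC. It was not called over 11 arrays (0.21 ± 0.13, adjusted p = 0.447) and was over 10 (0.38 ± 0.09, adjusted p = 0.018), a call lost without PBS replicate 2 or ATRA+pIC replicate 1 (adjusted p = 0.0515 to 0.176). The receptor chain Ifnar1, named after its values were seen, differed by -0.07 ± 0.09 (adjusted p = 0.726).

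Antigen presentation by MHC class I rose mainly without replicate 2: 8 of 17 members over 11 arrays (1 without ATRA+pIC replicate 3 or PBS replicate 2, 2 without PBS or ATRA+pIC replicate 1, 5 without ATRA replicate 3) and 16 of 17 over 10. Of all genes 1.61% rose over 11 arrays and 5.48% over 10. The median difference of the class I list was 0.61 over 11 arrays and 0.77 over 10. H2-T24, a non-classical class I gene, read 7.32, 7.23 and 7.43 in PBS and 9.93, 8.92 and 9.75 in ATRA+pIC, a rise of 2.20 ± 0.27 (4.61-fold, adjusted p = 0.00338). Tap1, a subunit of the transporter that feeds peptides to class I, read 11.55, 11.47 and 11.79 against 12.55, 12.02 and 12.47. Its rise of 0.74 ± 0.13 (adjusted p = 0.017) was lost without PBS replicate 1 or 2 or ATRA+pIC replicate 1 or 3 (adjusted p = 0.0641 to 0.0785) and was 0.91 ± 0.10 over 10 arrays. The immunoproteasome subunit Psmb8 rose by 0.55 ± 0.09 (adjusted p = 0.013; 0.053 to 0.0641 without PBS replicate 2 or ATRA+pIC replicate 3). H2-K1, a classical class I heavy chain, differed by 0.22 (adjusted p = 0.254) over 11 arrays and by 0.33 (adjusted p = 0.0169) over 10. That call was lost without single arrays (adjusted p = 0.056 to 0.142). Of 10 MHC class II genes none was called over 11 arrays and 2 rose over 10 (0 without ATRA+pIC replicate 1, 4 without PBS replicate 3). H2-Ab1 read 9.62, 9.55 and 10.62 in PBS and 11.43, 10.25 and 11.31 in ATRA+pIC, so the groups overlapped.

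The median of the chemokines and inflammatory NF-kB targets against PBS was 0.42, 0.00 and 0.24 in ATRA+pIC replicates 1, 2 and 3. Its members went both ways, also in replicate 2. Over 11 arrays 1 of 32 rose and 2 fell. Without replicate 2, 13 rose (6 without ATRA+pIC replicate 1) and 2 fell. The 2 falls are 6.25% of the list, where 1.51% of all genes fell over 11 arrays and 5.65% over 10. The rises were 3.12% and 40.6% of the list, where 1.61% and 5.48% of all genes rose. Cxcl9, a T-cell-attracting chemokine, read 6.17, 6.14 and 6.29 in PBS and 11.44, 6.80 and 10.99 in ATRA+pIC. Its difference was 3.54 ± 0.91 (adjusted p = 0.063) over 11 arrays and 5.01 ± 0.13 (32.2-fold, adjusted p = 8.82e-08) over 10. Ccl5, a chemokine also made by T and NK cells, read 7.51, 8.28 and 8.36 in PBS and 12.86, 8.27 and 12.40 in ATRA+pIC, so replicate 2 lay inside the PBS range. Cxcl10 read 5.93, 5.69 and 6.17 against 10.31, 6.44 and 9.02 (13.3-fold over 10 arrays, adjusted p = 7.15e-05). The genes that fell in the 11-array fit did so in every treated array: Ptgs2 (cyclooxygenase-2, which makes prostaglandins) by 1.18 ± 0.16 (adjusted p = 0.00508), and Nfkbiz, an inducible NF-kB cofactor, from 8.85, 8.93 and 8.76 to 8.06, 8.02 and 8.12 (adjusted p = 0.00494). The member that rose, Il6, differed by 0.58 (adjusted p = 0.0136; 0.0567 to 0.0606 without PBS replicate 2 or ATRA+pIC replicate 3).

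Immediate-early genes, which cells switch on within minutes of a stimulus and which are often raised by cell handling, moved 1 way where they passed the test. Of 34 measured, 20 fell and none rose in each fit, where 1.51% and 5.65% of all genes fell; the 20 became 13 without PBS replicate 2 over 11 arrays and 11 without ATRA+pIC replicate 1 over 10. The median difference was -0.69 over 11 and -0.62 over 10 arrays. Here replicate 2 did not stand apart: the list's median against PBS was -0.66, -0.76 and -0.65 in ATRA+pIC replicates 1, 2 and 3. Nr4a1, an orphan nuclear receptor, read 11.64, 11.66 and 11.17 in PBS and 8.12, 8.67 and 9.05 in ATRA+pIC. The groups were far apart, and the gene fell by 2.88 ± 0.33 (0.136-fold, adjusted p = 0.00216). Its relative Nr4a2 read 10.11, 10.18 and 9.86 against 7.68, 8.14 and 8.32 (fell by 2.01 ± 0.27, adjusted p = 0.0044).

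Klf4, a Krüppel-like factor that restrains cell division, read 8.18, 8.38 and 7.99 in PBS and 6.73, 6.60 and 6.66 in ATRA+pIC, and fell by 1.52 ± 0.14 (0.349-fold, adjusted p = 0.001). Klf2 fell by 1.36 ± 0.19 (adjusted p = 0.00563), or 1.35 over 10 arrays. Fosb, a component of the AP-1 factor, read between 11.93 and 12.04 in PBS against 10.91, 10.83 and 10.75 (fell by 1.16 ± 0.09, adjusted p = 0.000387). In Klf4 and Fosb the spread among the treated arrays was far smaller than the gap to PBS. Dusp1, a phosphatase that shuts off MAP kinases, read 12.04, 12.09 and 11.98 in PBS and 11.37, 11.15 and 11.21 in ATRA+pIC. Zfp36, which speeds the decay of cytokine mRNA, fell by 0.84 ± 0.09 and Tob1, an antiproliferative gene, by 1.13 ± 0.11 (adjusted p = 0.001). Egr1, a factor tied to HSC quiescence and retention, read 9.86, 10.01 and 9.62 in PBS and 8.22, 8.87 and 8.99 in ATRA+pIC (fell by 1.14 ± 0.19, adjusted p = 0.0135). This call was lost without PBS replicate 1 or 2 (adjusted p = 0.0504 to 0.0633). A cyclic-AMP response element (TGACGTCA), which many such genes use, was in the promoter window of 3 of 29 immediate-early genes (10.3%) and of 2.65% of all genes. Among genes called lower the element was in 3.2% over 11 arrays and 3.42% over 10. The stretch of Dusp1 that holds it, at chr17:26508582-26508641 on the minus strand of GRCm38.p6, is shown with the element in capitals.
Dusp1: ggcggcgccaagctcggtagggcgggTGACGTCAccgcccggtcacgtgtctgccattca

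Some of the genes that characterise HSCs fell, more of them without replicate 2, and others rose or did not pass. Of all genes 1.51% fell and 1.61% rose over 11 arrays, and 5.65% and 5.48% over 10. Of 35 HSC surface and marker genes, 8 fell over 11 arrays (5 without PBS replicate 1 or 2, 4 without ATRA+pIC replicate 3) and 18 over 10 (11 without ATRA+pIC replicate 1), while 6 rose in each fit. Of 35 HSC transcription factors, 4 fell over 11 arrays (2 without PBS replicate 1 or ATRA+pIC replicate 3, 1 without PBS replicate 2) and 16 over 10 (5 without ATRA+pIC replicate 1), with 0 and 1 rising. Fgd5, a gene whose expression marks HSCs, read 8.91, 8.89 and 8.85 in PBS and 7.21, 8.02 and 7.63 in ATRA+pIC. It fell by 1.26 ± 0.16 (0.417-fold, adjusted p = 0.00377) over 11 arrays and by 1.46 ± 0.12 over 10. Neo1, a netrin receptor expressed on dormant HSCs, read 7.52, 7.43 and 7.39 against 5.87, 6.50 and 5.99 (fell by 1.33 ± 0.14, adjusted p = 0.00135). Nkx2-3, a homeobox factor, read 9.15, 9.13 and 9.04 against 7.65, 8.12 and 7.93 (fell by 1.21 ± 0.12, adjusted p = 0.00115). All treated arrays lay below all PBS arrays in these 3 genes. Mllt3, which supports HSC self-renewal, fell by 0.87 ± 0.12, and Procr, the EPCR receptor used to sort HSCs, by 0.64 ± 0.09 (0.643-fold, adjusted p = 0.00508).

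Hlf and Mecom, factors that maintain HSCs, were called without replicate 2 only. Hlf read 10.68, 10.78 and 10.58 in PBS and 8.94, 10.48 and 9.31 in ATRA+pIC, a difference of -1.10 ± 0.30 (adjusted p = 0.0744) over 11 arrays and -1.56 ± 0.13 (0.34-fold, adjusted p = 0.000102) over 10. Mecom read 10.15, 10.29 and 10.10 against 8.58, 9.89 and 9.13 (adjusted p = 0.058 over 11 and 0.00034 over 10 arrays). In both genes replicate 2 lay just below the PBS range, nearer to PBS than to the other treated arrays. Kit, the stem cell factor receptor, read 12.34, 12.37 and 12.34 in PBS and 11.72, 12.28 and 11.84 in ATRA+pIC and was lower by 0.57 on the log2 scale over 10 arrays (0.673-fold, adjusted p = 0.00173). Emcn (endomucin), a surface protein of HSCs and endothelium, read 8.85, 8.70 and 8.71 against 6.65, 8.61 and 7.30 and was called over 10 arrays only (-1.78 ± 0.17, adjusted p = 0.000174; adjusted p = 0.0916 over 11). Hoxa5 fell by 1.12 ± 0.20 (adjusted p = 0.017; 0.0585 to 0.075 without PBS replicate 2 or ATRA+pIC replicate 3). Members that did not pass included Slamf1 (CD150), at -0.31 (adjusted p = 0.211), and Cd34, which read 10.35, 10.35 and 10.43 in PBS and 10.28, 10.86 and 10.37 in ATRA+pIC.

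Cd48 was among the HSC surface and marker genes that rose, and Selp, counted below with the megakaryocyte and platelet markers, rose too. Selp, the adhesion molecule P-selectin, read 9.56, 9.37 and 9.62 in PBS and 10.78, 10.54 and 10.48 in ATRA+pIC, a rise of 1.08 ± 0.12 (2.12-fold, adjusted p = 0.00156), and of 1.11 ± 0.13 over 10 arrays. Cd48, which is low on HSCs and high on progenitors and mature blood cells, read 7.53, 7.28 and 7.82 against 9.46, 8.27 and 9.44. Its rise of 1.51 ± 0.28 (2.86-fold, adjusted p = 0.0196) was lost without PBS replicate 1 or 2 or ATRA+pIC replicate 1 or 3 (adjusted p = 0.0662 to 0.0872) and was 3.76-fold over 10 arrays. The 6 rises of HSC surface and marker genes over 11 arrays became 0 without PBS replicate 1 or 2 or ATRA+pIC replicate 1 or 3. They became 1 without PBS replicate 3, 2 without ATRA replicate 3 and 3 without ATRA replicate 2 or pIC replicate 1 or 2. Of 30 cell-cycle inhibitors and quiescence genes, 7 fell and 2 rose over 11 arrays, 3 to 4 falling when any single array but ATRA replicate 3 or ATRA+pIC replicate 2 was left out and none rising without any PBS array or ATRA+pIC replicate 1 or 3. Over 10 arrays 9 fell (3 without ATRA+pIC replicate 1) and 2 rose. Klf4, Klf2, Egr1 and Tob1 are among those that fell. Cdkn1c, the cyclin-dependent kinase inhibitor p57, read 7.85, 7.86 and 7.83 in PBS and 7.01, 7.59 and 7.26 in ATRA+pIC (adjusted p = 0.0691 over 11 and 0.00766 over 10 arrays, the latter 0.104 without ATRA+pIC replicate 1). Gadd45g, a growth-arrest gene, rose by 1.77 ± 0.32 (adjusted p = 0.0171; 0.0501 to 0.0782 without any single PBS array or ATRA+pIC replicate 1 or 3).

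**Figure D2:**
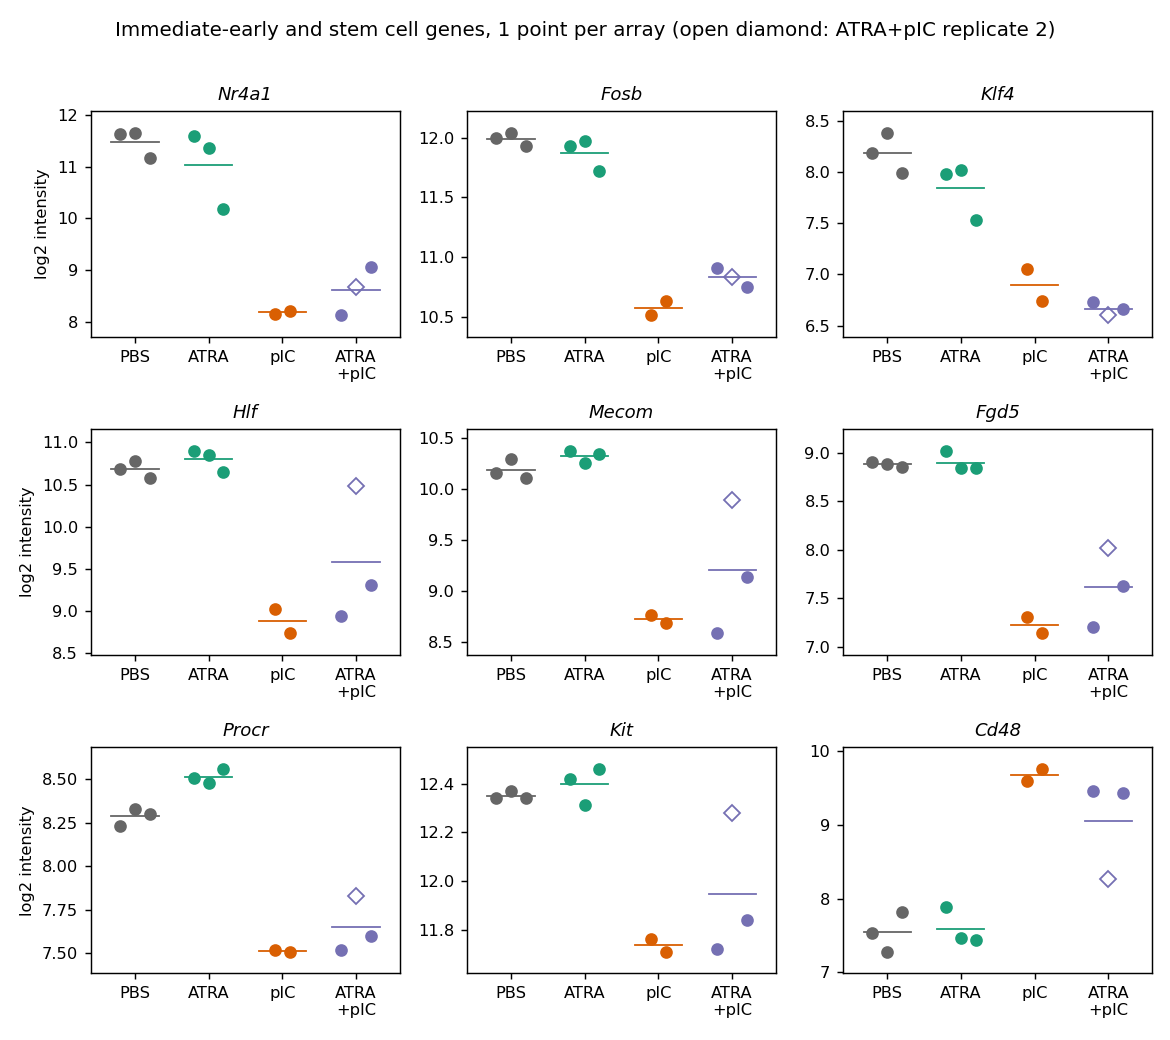
Log2 RMA values of 9 genes (y axes) in each array by group (x axis): the immediate-early genes Nr4a1, Fosb and Klf4, the HSC genes Hlf, Mecom, Fgd5, Procr and Kit, and Cd48. Points are arrays, bars are group means and the open diamond is ATRA+pIC replicate 2, which sits with its group in Fosb (10.83) and near PBS in Hlf (10.48) and Kit (12.28).

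Genes of cell division were higher in few members over 11 arrays, where 1.61% of all genes rose (5.48% over 10 arrays). Of 48 G1/S and DNA replication genes, 5 rose and 1 fell over 11 arrays (1 to 3 rising without any single array but ATRA replicate 3 or ATRA+pIC replicate 2), and 11 rose and 1 fell over 10 (5 rising without PBS replicate 2, 2 without ATRA+pIC replicate 1 or 3). Gins1, a subunit of the replicative helicase, read 8.50, 8.30 and 8.49 in PBS and 9.12, 9.11 and 9.18 in ATRA+pIC, a rise of 0.71 ± 0.08 (1.63-fold, adjusted p = 0.00238). Cdk6, the kinase whose level sets how readily HSCs leave quiescence, read 11.29, 11.09 and 11.25 against 11.81, 11.52 and 11.72. Its rise of 0.47 ± 0.09 (adjusted p = 0.0202) was lost without PBS replicate 2 or 3 or ATRA+pIC replicate 1 or 3 (adjusted p = 0.0501 to 0.0887). The member that fell was Ccnd1 (cyclin D1), at 8.97, 8.75 and 9.18 in PBS and 7.85, 8.45 and 8.22 in ATRA+pIC (fell by 0.79 ± 0.16, adjusted p = 0.0311; 0.0518 to 0.0975 without any PBS or pIC array or ATRA+pIC replicate 1 or 3).

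G2/M and mitosis genes, 57 measured, rose in 2 members over 11 arrays and in 14 over 10, with 0 and 1 falling. The 2 became 0 without PBS replicate 1 or 2 or ATRA+pIC replicate 3 and 1 without PBS replicate 3 or ATRA+pIC replicate 1. The 14 became 8 and 5 without PBS replicates 1 and 2, and 0 and 6 without ATRA+pIC replicates 1 and 3. The 2 were Cenpe, a kinetochore motor that rose by 0.58 ± 0.10 (adjusted p = 0.0169), and Kif2c, a microtubule-depolymerising motor that rose by 0.48 ± 0.09 (adjusted p = 0.0176). Leaving out PBS replicate 1 or 2 or ATRA+pIC replicate 1 or 3 ended both calls, and PBS replicate 3 that of Kif2c (adjusted p = 0.0552 to 0.0763 and 0.0525 to 0.085). Mki67, the proliferation marker Ki-67, differed by 0.05 (adjusted p = 0.823). The mitotic promoter element TTTGAA was present on either strand in 35 of 48 windows of this list (72.9%) and 17.8% of all windows, and the E2F sequences TTTCGCGC, TTTGGCGC or TTTCCCGC in 17 of 39 G1/S windows (43.6%) and 2.78% of all. Among genes called higher the 2 shares were 16.5% and 4.56% over 11 arrays and 16.0% and 3.24% over 10.

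Growth and protein turnover genes passed mostly without replicate 2, where 5.48% of all genes rose and 5.65% fell (1.61% and 1.51% over 11 arrays). Ribosome biogenesis and Myc targets rose in 8 of 55 over 11 arrays (0 to 3 without any single array but ATRA+pIC replicate 2) and in 22 over 10 (2 without ATRA+pIC replicate 1, 10 without replicate 3), and Myc itself differed by 0.25 (adjusted p = 0.123). In the other direction Ppan, a ribosome biogenesis factor, read 11.72, 11.36 and 11.21 in PBS and 10.27, 10.68 and 10.49 in ATRA+pIC and fell by 0.95 ± 0.14 (adjusted p = 0.00658). Constitutive proteasome subunits rose in 2 of 30 over 11 arrays (0 or 1 without any single array but ATRA+pIC replicate 2) and in 20 over 10, with 11, 12, 3 and 7 when PBS replicate 1, PBS replicate 2, ATRA+pIC replicate 1 or ATRA+pIC replicate 3 was also left out. Heat shock and unfolded protein response genes rose in 3 of 31 over 11 arrays (0 or 1 without any single array but PBS replicate 1 or ATRA+pIC replicate 2) and in 11 over 10 (6 without ATRA+pIC replicate 1), and 1 fell in each fit. That one was Dnajb9, a chaperone of the endoplasmic reticulum, at -0.64 ± 0.11 (adjusted p = 0.0163; 0.0563 to 0.0763 without PBS replicate 1 or 2 or ATRA+pIC replicate 1 or 3) over 11 arrays and -0.71 (adjusted p = 0.00546; 0.0512 without ATRA+pIC replicate 1) over 10. Sdf2l1, a chaperone cofactor of the endoplasmic reticulum, rose by 1.17 ± 0.12 (2.26-fold, adjusted p = 0.000282) over 10 arrays. Sterol and fatty acid synthesis went mostly the other way, with 2 of 32 falling over 11 arrays (1 without any single array but ATRA+pIC replicate 2 or 3) and 11 over 10 (7 without PBS replicate 2, 2 without ATRA+pIC replicate 1), while 0 and 2 rose. Insig1, the sterol-regulated brake on cholesterol synthesis, fell by 0.97 ± 0.15 (0.51-fold, adjusted p = 0.00873), and by 1.11 ± 0.14 over 10 arrays.

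Retinoid genes were read next, since the mice also received ATRA. Of 24 retinoic acid response genes, 2 rose (8.33%) and 1 fell (4.17%) in each fit, and of 33 retinoid enzymes, carriers and receptors 1 fell (3.03%). Of all genes 1.61% rose and 1.51% fell over 11 arrays, and 5.48% and 5.65% over 10. Dhrs3, a reductase that turns retinal back into retinol and is induced by retinoic acid, read 9.0, 9.43 and 9.03 in PBS and 10.74, 11.12 and 10.74 in ATRA+pIC. All treated arrays were more than 1.3 above PBS, and replicate 2 was the highest. It rose by 1.71 ± 0.16 (3.28-fold, adjusted p = 0.001) over 11 arrays and by 1.59 ± 0.16 (3.01-fold, adjusted p = 0.000245) over 10. With ATRA alone it read 10.92, 11.41 and 11.30 and with pIC alone 9.83 and 9.94, against the same PBS arrays. Tgm2, transglutaminase 2, rose by 0.45 ± 0.10 (adjusted p = 0.0421), from 10.29, 10.44 and 10.22 to 10.89, 10.73 and 10.67. That call was lost without any PBS or pIC array, ATRA replicate 3 or ATRA+pIC replicate 1 or 3 (adjusted p = 0.0633 to 0.156). The genes that fell were Hoxa5, given above, and Rdh10, which makes retinal from retinol, by 0.63 (adjusted p = 0.0402; 0.0524 to 0.125 without any array but ATRA+pIC replicate 2).

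Rarb and Cyp26b1, direct retinoic acid targets, did not pass the test against PBS. The Rarb promoter holds the direct repeat to which retinoic acid receptors bind, in capitals below, at chr14:16575491-16575550 on the minus strand of GRCm38.p6; the letters searched were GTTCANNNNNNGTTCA, GGTCANNNNNNGGTCA, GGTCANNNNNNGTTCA and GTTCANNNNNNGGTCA on both strands, found in 37 genes or 0.218% of all.
Rarb: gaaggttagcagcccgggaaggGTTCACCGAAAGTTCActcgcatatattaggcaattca

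Rarb, a retinoic acid receptor, read 6.74, 6.86 and 6.43 in PBS and 6.21, 7.27 and 6.74 in ATRA+pIC, so the groups overlapped and replicate 2 was highest. The difference was 0.06 (95% interval -0.49 to 0.61, adjusted p = 0.93). With ATRA alone Rarb read 7.70, 8.26 and 7.88 and with pIC alone 5.50 and 5.98. It was lower in ATRA+pIC than in ATRA by 1.20 ± 0.25 on the log2 scale (adjusted p = 0.0187) over 11 arrays, a fall of 1.47 (adjusted p = 0.00188) over 10. Cyp26b1, the enzyme that degrades retinoic acid, read 7.50, 7.83 and 7.28 in PBS and 6.87, 8.11 and 7.97 in ATRA+pIC, a difference of 0.12 (95% interval -0.59 to 0.82, adjusted p = 0.896). With ATRA alone it read 8.86, 9.81 and 9.39, above every ATRA+pIC array (adjusted p = 0.0129 for ATRA+pIC against ATRA).

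**Figure D3:**
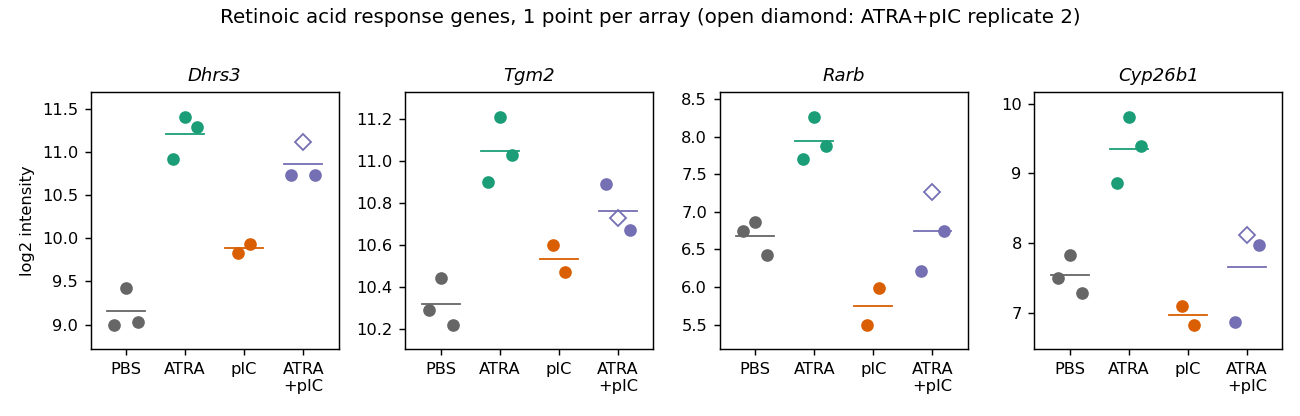
Log2 RMA values of Dhrs3, Tgm2, Rarb and Cyp26b1 (y axes) in each array by group (x axis). Points are arrays, bars are group means and the open diamond is ATRA+pIC replicate 2; Dhrs3 is at 10.74 to 11.12 in ATRA+pIC against 9.0 to 9.43 in PBS, whereas the ATRA+pIC and PBS arrays of Rarb and Cyp26b1 overlap and the ATRA arrays are the highest.

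Each list of other blood-cell markers had more calls without replicate 2, and so had all genes (690 over 11 arrays, 2469 over 10). For all marker counts that follow, the shares over all genes were 1.61% higher and 1.51% lower over 11 arrays. Over 10 arrays they were 5.48% and 5.65%. T- and NK-cell markers rose in 1 of 28 members over 11 arrays (0 without PBS replicate 1 or 2 or ATRA+pIC replicate 1 or 3) and in 18 over 10, and the list's median against PBS was 0.90, 0.04 and 0.82 in replicates 1, 2 and 3. It was 0.28 and 0.55 in the pIC arrays and 0.09 to 0.13 in the ATRA arrays. Gzmb, the killer-cell protease granzyme B, read 5.03, 4.49 and 4.53 in PBS and 9.77, 4.78 and 8.56 in ATRA+pIC (4.48 ± 0.33, 22.4-fold, adjusted p = 3.28e-05 over 10 arrays; adjusted p = 0.107 over 11). Cd3g, a chain of the T-cell receptor complex, read 5.0, 5.30 and 6.27 against 9.23, 5.46 and 9.63 (15.0-fold over 10 arrays, adjusted p = 0.000882). Il2rb, a cytokine receptor chain of T and NK cells, read 6.22, 5.91 and 6.39 against 9.77, 6.55 and 9.45. Replicate 2 lay inside the PBS range in Gzmb and Cd3g and just above it in Il2rb. The member that rose over 11 arrays was Nkg7, a granule protein, by 0.93 (adjusted p = 0.0216; 0.0633 to 0.094 without PBS replicate 1 or 2 or ATRA+pIC replicate 1 or 3). The medians of the interferon, MHC class I and chemokine lists were also higher in replicates 1 and 3 than in replicate 2, and those of the HSC lists lower; the part of these markers in those differences was not tested. In replicate 2, whose T- and NK-cell median was 0.04, the median of the interferon effectors was 0.81 and that of the immediate-early genes -0.76.

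Erythroid markers rose in none of 20 members over 11 arrays and in 9 over 10 (5 without PBS replicate 2, 2 without ATRA+pIC replicate 1), and their median was 0.49, -0.23 and 0.26 in replicates 1, 2 and 3, against 0.83 and 0.97 in pIC. Rhag, a blood-group protein of red cells, read 7.59, 8.01 and 7.92 in PBS and 10.24, 7.51 and 9.46 in ATRA+pIC (4.03-fold over 10 arrays, adjusted p = 0.000282), with replicate 2 below the PBS arrays. Klf1, the master factor of red cell genes, read 7.63, 7.42 and 7.70 against 8.91, 7.34 and 8.24 (adjusted p = 0.00589 over 10 arrays, 0.0501 without ATRA+pIC replicate 1). Megakaryocyte and platelet markers went both ways: 5 of 21 rose and 4 fell over 11 arrays, 8 and 4 over 10. Without PBS replicate 1 or 2 or ATRA+pIC replicate 1 or 3, 1 rose and 1 fell over 11 arrays. Besides Selp, Itga2b (CD41) rose by 0.78 ± 0.15 (adjusted p = 0.0216; 0.0526 to 0.094 without any PBS array or ATRA+pIC replicate 1 or 3). Vwf, the von Willebrand factor that marks platelet-biased HSCs, read 9.39, 9.31 and 9.40 in PBS and 8.58, 8.67 and 8.83 in ATRA+pIC and fell by 0.67 ± 0.09 (0.628-fold, adjusted p = 0.0042), or 0.66 over 10 arrays. Neither direction therefore covered the list.

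Of 28 monocyte, macrophage and dendritic cell markers, 4 rose and none fell over 11 arrays and 7 rose and 2 fell over 10, with a median difference of 0.03 and 0.00. The 4 became 1 or 2 without any PBS or pIC array, ATRA replicate 2 or ATRA+pIC replicate 1 or 3, and the 7 became 4 without ATRA+pIC replicate 1. Mpeg1 (perforin-2) read 5.36, 5.18 and 5.34 in PBS and 9.87, 6.67 and 9.06 in ATRA+pIC, a rise of 3.24 ± 0.60 (9.45-fold, adjusted p = 0.019) over 11 arrays, lost without any PBS array or ATRA+pIC replicate 1 or 3 (adjusted p = 0.0505 to 0.0867) and 4.17 over 10 arrays. Bst2, described above, stands on this list too. Ly6c2, also induced by interferon, rose by 3.21 ± 0.67 (adjusted p = 0.0329; 0.0523 to 0.123 without single arrays), or by 4.14 over 10 arrays, and has near-identical neighbours. B-cell markers rose in 0 of 17 and 1 over 10 arrays, mast-cell markers in 0 and 1 of 20, and neutrophil markers in 1 and 4 of 22 (0 and 2 without PBS replicate 2). Over 10 arrays the B-cell share was 5.88% and the mast-cell share 5.0%, near the 5.48% of all genes that rose. Multipotent and lymphoid-primed progenitor markers rose in 1 of 17 (Cd48) and in 6 over 10 arrays (3 without ATRA+pIC replicate 1). Their median against PBS was 0.44, -0.02 and 0.44 in ATRA+pIC replicates 1, 2 and 3. Endothelial markers rose in 1 and fell in 2 of 26 over 11 arrays, and rose in 3 and fell in 7 over 10 (4 falling without ATRA+pIC replicate 1). Stromal markers fell in 1 of 23 in each fit, and rose in 0 and 1, which over 10 arrays is 4.35% each way and near the shares of all genes.

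In the remaining lists few genes passed over 11 arrays, where 1.61% of all genes rose and 1.51% fell, and each 11-array count given here was 0 without ATRA+pIC replicate 3. Over 10 arrays 5.48% of all genes rose and 5.65% fell. The p53 targets and apoptosis genes rose in 5 of 34 (14.7%) over 11 arrays and in 10 (29.4%) over 10, where 1 fell. DNA repair genes rose in 1 of 28 (3.57%) over 11 arrays, and over 10 arrays 3 rose (10.7%) and 2 fell. Antioxidant defence genes rose in 1 of 26 (3.85%), and over 10 arrays 4 rose (15.4%) and 2 fell. Of 52 oxidative phosphorylation genes 1 rose and 1 fell (1.92% each) over 11 arrays, and 4 rose (7.69%) and 1 fell over 10. These last shares were near those of all genes. Of 59 cytosolic ribosomal proteins 1 rose and 1 fell over 11 arrays, and 1 rose and 7 fell (11.9%) over 10. Of 26 glycolysis genes 1 fell over 11 arrays, and 4 rose and 3 fell over 10. Lysosome and autophagy genes went both ways, with 1 of 38 rising and 4 falling over 11 arrays and 4 rising and 6 falling over 10. Ctss, the lysosomal protease cathepsin S, was the one that rose, by 1.79 ± 0.31 (3.45-fold, adjusted p = 0.0159; 0.0615 to 0.0695 without PBS replicate 1 or 2 or ATRA+pIC replicate 3). Chromatin regulators fell in 2 of 36, and over 10 arrays 4 fell and 1 rose. Without ATRA+pIC replicate 1 as well, the 10-array counts of rising genes were 5, 0, 0, 0, 0, 0, 1 and 0 and those of falling genes 0, 0, 0, 0, 1, 1, 2 and 0, in the order given. The p53 list's Tnfsf10 (TRAIL, a death ligand that interferon induces) rose by 1.08 (adjusted p = 0.0131; 0.0511 to 0.0613 without PBS replicate 2 or ATRA+pIC replicate 3). Mlkl, the effector of necroptosis, rose by 1.01 (adjusted p = 0.0152; 0.0584 to 0.07 without PBS replicate 1 or 2 or ATRA+pIC replicate 3).

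Large falls outside these lists included Klf12, a transcriptional repressor. Klf12 read 7.50, 8.17 and 7.56 in PBS and 6.33, 6.56 and 6.0 in ATRA+pIC, and fell by 1.45 ± 0.18 (0.366-fold, adjusted p = 0.00352). With pIC alone it read 5.0 and 4.77, below every ATRA+pIC array. Pygm, muscle glycogen phosphorylase, read 9.44, 9.43 and 9.10 in PBS and 6.78, 8.35 and 7.85 in ATRA+pIC (fell by 1.66 ± 0.30, adjusted p = 0.0174; 0.0573 to 0.075 without PBS replicate 1 or 2 or ATRA+pIC replicate 3).

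Called genes also lay side by side on chromosomes, counting only measured genes with a RefSeq position. Over 11 arrays the MHC genes Psmb9, Tap1, Psmb8 and Tap2 on chromosome 17 were consecutive called genes, higher by 0.55 to 0.74, as were Slfn5, Slfn8, Slfn10-ps and Slfn2 on chromosome 11 (0.74 to 2.05). A run of 3 lower genes of the Olfr family lay on chromosome 7 over 11 arrays (-1.70 to -1.09). Without replicate 2 the runs included 8 genes of the Ifi200 cluster on chromosome 1 (Ifi214 to Mndal, 0.87 to 5.12). Others were 8 genes of the Ms4a region on chromosome 19 (Ms4a4c to Ms4a6d, 0.71 to 5.25) and 6 Gbp genes on chromosome 5 (0.74 to 2.89). Also without replicate 2, a run of lower genes joined Hoxa5, Hoxa6, Hoxa7, Hoxa9 and Hoxa10 on chromosome 6, at -1.33 to -0.57. Members of such families share sequence, so neighbouring probe sets may not be independent measurements.

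Replicate 2 carried a different share of each list's difference. In the interferon effectors its median against PBS was 0.81, which is 51.7% of the mean of replicates 1 and 3 (1.56), and in the sensors 53.8%. The share was 40.7% in the GTPases, 34.5% in the HSC transcription factors, 30.8% in MHC class I and 26.5% in the HSC surface genes. It was 4.31% in the interferon receptors and signalling genes, 4.79% in the T- and NK-cell markers, 0.827% in the NF-kB targets and 117% in the immediate-early genes. In the progenitor and erythroid markers it was -5.28% and -61.9%, as their median in replicate 2 was below the PBS mean. The NF-kB list holds members that went both ways, and none of these shares was tested. Genes called higher without replicate 2 had a median difference of 0.61, 0.18 and 0.52 in replicates 1, 2 and 3, and genes called lower -0.66, -0.19 and -0.49; replicates 1 and 3 entered that choice and replicate 2 did not.

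**Figure D4:**
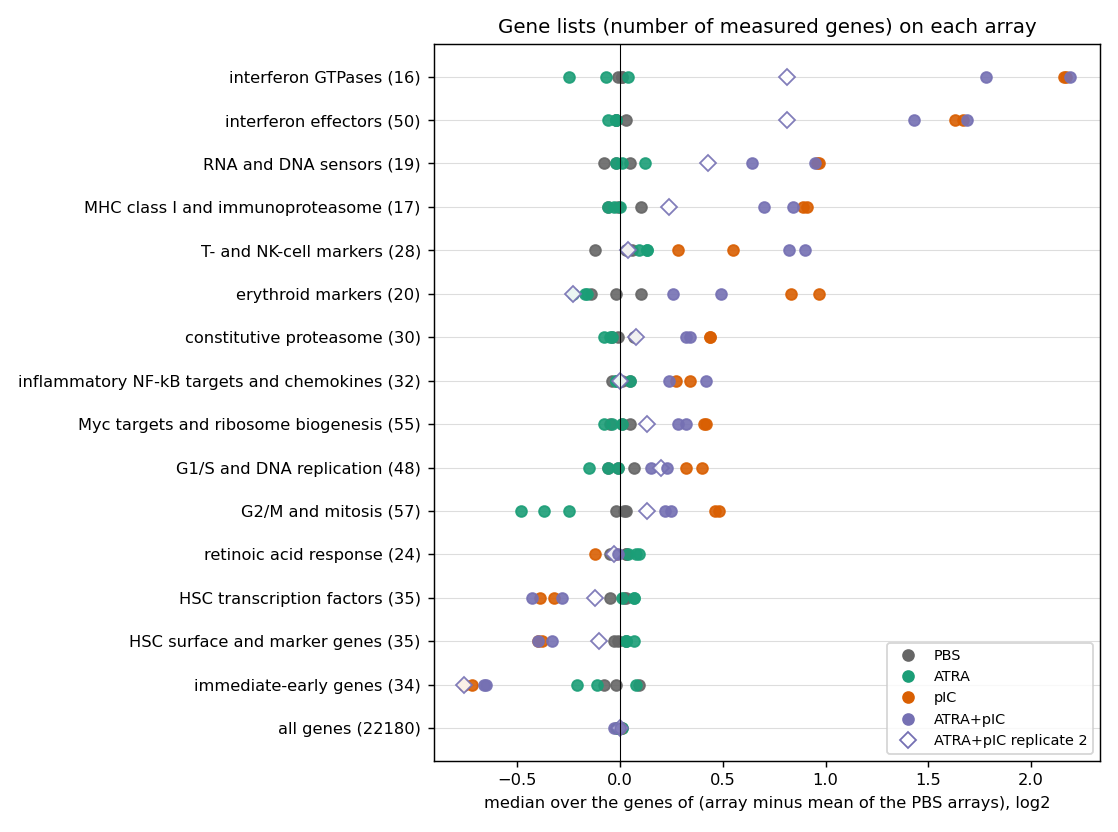
Median log2 difference from the PBS mean (x axis) of the measured members of 15 gene lists and of all genes (rows) in every array. Points are arrays coloured by group and the open diamond is ATRA+pIC replicate 2, which is at 0.81 against 1.69 and 1.43 for the interferon effectors and at -0.76 against -0.66 and -0.65 for the immediate-early genes.

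**Figure D5:**
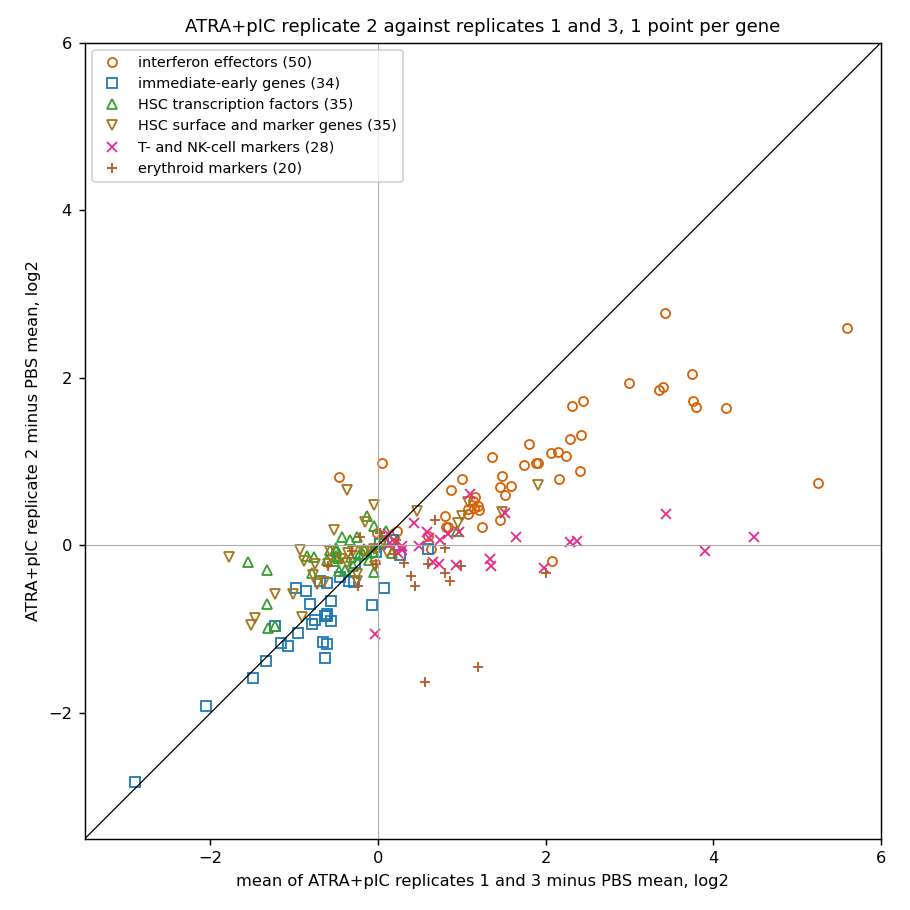
Log2 difference from the PBS mean in ATRA+pIC replicate 2 (y axis) against the mean of ATRA+pIC replicates 1 and 3 (x axis) for the genes of 6 lists, shown by colour and symbol; each point is a gene and the diagonal marks equal values. Most of the 50 interferon effectors are above 0 on both axes but below the diagonal, T- and NK-cell markers such as Gzmb are near 0 on the y axis only, and immediate-early genes such as Nr4a1 lie near the diagonal.

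Set against pIC alone, no gene was called with limma over 11 or over 10 arrays (0.0% of genes in each), while 2242 genes (10.1%) and 1718 (7.75%) had an unadjusted p under 0.05. The smallest adjusted p was 0.176 and 0.239, leaving out pIC replicate 1 gave 1 called gene in each fit, as did leaving out ATRA+pIC replicate 3 over 10 arrays, and weighting the arrays by their fit gave 112 over 11 arrays. With 2 pIC arrays the absence of calls does not show that the treatments act alike. Over 10 arrays the difference of ATRA+pIC from pIC was -0.07 for Irf7 (95% interval -0.30 to 0.17), -0.09 for Isg15 (-0.49 to 0.30) and -0.26 for Apol9b (-0.75 to 0.23). It was 0.25 for Hlf (-0.08 to 0.58), 0.20 for Fgd5 (-0.10 to 0.49), 0.05 for Procr (-0.14 to 0.23) and 0.41 for Nr4a1 (-0.54 to 1.35). Each of these intervals includes 0. For Apol9b the 11-array difference was -1.26 (-2.83 to 0.31). Of the 218 genes chosen by rule, 34 had an 11-array interval that excluded 0 before any adjustment over genes, 19 higher and 15 lower in ATRA+pIC. Over 10 arrays 38 had such an interval, 27 higher and 11 lower, and none was called in either fit. Among them were Klf12 at 1.27 (0.81 to 1.74, adjusted p = 0.239), Satb1, a lymphoid chromatin organiser, at 1.11 (0.66 to 1.56, adjusted p = 0.253), Dhrs3 at 0.86 (0.47 to 1.25, adjusted p = 0.287), Nfkbiz at 0.52 (0.23 to 0.82), Rarb at 0.74 (0.20 to 1.27), Egr1 at 0.60 (0.08 to 1.12) and Klf1 at -0.72 (-1.14 to -0.29, adjusted p = 0.402). The lymphoid genes Il7r, a cytokine receptor chain, at 2.14 (0.92 to 3.36, adjusted p = 0.388), Cd3g at 1.42 (0.24 to 2.60, adjusted p = 0.556) and Il2rb at 1.18 (0.36 to 2.0, adjusted p = 0.474) were also among them. Over 11 arrays Cd3g differed from pIC by 0.10 (-2.15 to 2.34). Over 10 arrays 14 of the 28 T- and NK-cell markers had an unadjusted p under 0.05 between ATRA+pIC and pIC, with a median difference of 0.47. So had 9 of 17 progenitor markers (0.38) and 6 of 20 erythroid markers (-0.33). Over 11 arrays, with replicate 2, such a p was found in 0 T- and NK-cell markers (median 0.09), 4 progenitor markers (0.17) and 11 erythroid markers (-0.61). The median of all genes was -0.03 over 10 and -0.02 over 11 arrays. The median of the G2/M list against PBS was 0.22, 0.13 and 0.25 in the ATRA+pIC arrays and 0.45 over the pIC arrays, compared with the same PBS arrays. It was -0.25, -0.37 and -0.48 in the ATRA arrays. Of the list's 57 members, 22 over 11 arrays and 19 over 10 had an unadjusted p under 0.05 between ATRA+pIC and pIC, and none was called.

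Set against ATRA alone, 1599 genes (7.21%) were called over 11 arrays, 777 higher and 822 lower, and 3214 (14.5%) over 10. The first count was 476 without ATRA+pIC replicate 3, 579 without replicate 1 and 594 to 755 without single ATRA arrays, and the second 1162 without ATRA+pIC replicate 1. Whether the combined treatment differed from the sum of its parts was tested as a departure from additivity, the ATRA+pIC value minus PBS less the separate ATRA and pIC differences. No gene was called with limma (0.0% in each fit; 1390 genes, 6.27%, and 1368 genes, 6.17%, at an unadjusted p under 0.05; smallest adjusted p 0.395 and 0.471). For Dhrs3 the departure was -1.08 (95% interval -1.60 to -0.55, adjusted p = 0.702) over 11 arrays and -1.20 (-1.71 to -0.70, adjusted p = 0.538) over 10. Cyp26b1 departed by -1.36 (-2.40 to -0.32, adjusted p = 0.768) over 10 arrays. Neither passed the test over all genes.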

How the data were processed

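HSCs of mice injected with PBS (3 arrays), ATRA (3), pIC (2) or ATRA followed by pIC (3) were profiled from total RNA, isolated with a PicoPure kit, DNase-treated and labelled as biotin cRNA, per the labels' protocols. The deposited values of the authors are log2 RMA expression per probe set, made with oligo 1.36.1, per the submitters' processing notes, which also name limma 3.28.20 and state no array batches. Of 41345 probe sets, 23521 had 1 gene symbol, 1814 had several and 16010 had none listed; the platform annotation can be old, and 23328 gene IDs matched RefSeq. Each of 22180 genes was read through the single-symbol probe set brightest on average across the 11 arrays, since 1082 genes had more than 1.

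From these values linear models were fitted with limma 3.58.1 in R 4.3.3, with 1 mean per group and moderated variances, over all 11 arrays and over 10 without ATRA+pIC replicate 2. Contrasts were ATRA+pIC against PBS, pIC and ATRA, and the departure from additivity. p-values are two-sided, Benjamini-Hochberg adjusted over 22180 genes, and called below 0.05; ± is the standard error. The scripts were tested on simulated data. The small number of arrays limits the precision.

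The gene groups are 37 lists (27 pathways and 10 sets of cell type markers). The arrays, lists and fixed genes were chosen with earlier results of these data known, so counts within a list are no independent support. The genes named were drawn from the 12 largest rises and falls with non-overlapping arrays over 11 arrays, the 8 largest called only without replicate 2, up to 4 genes per list with the smallest adjusted p and 3 with the largest difference, and the fixed genes; Ifi27, Ifit3 and Ifnar1, and the members of neighbouring runs, were named after their values were seen. Replicate numbers were checked as pairs: deviations from the group means of PBS and ATRA+pIC arrays with the same number correlated at -0.028 to 0.098. With 3 arrays per group and ATRA+pIC replicate 2 lying apart, these values cannot exclude a pairing. The main fits used none, and the replicate number as a block is among the alternatives below. Promoter sequences are RefSeq's (GRCm38.p6). No protein or genome sequence was used here.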

Additional observations from a re-analysis of the deposited data

How the results depend on the processing

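Alternatives changed 1 choice at a time: array weights, cyclic loess, a filter on dim genes, averaging the probe sets of each gene, a trended and robust prior, only the compared groups, the replicate number as a block, and leaving out each array. For ATRA+pIC against PBS the count of 690 became 3127 with array weights, 1212 without the dimmest 40% of genes, 1044 with the trended and robust prior, 70 with only the groups compared, and 159 to 2469 with single arrays left out. Without replicate 2 the count of 2469 became 1321 with only the groups compared and 663 to 2287 with single arrays left out. With array weights 112 genes were called against pIC and 4588 against ATRA; with only the groups compared 305 were called against ATRA, and 476 to 3214 (1162 to 3221 without replicate 2) with single arrays left out. Counts against pIC and for the departure from additivity ranged from 0 to 1 when single arrays were left out, in both fits.

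By list over 11 arrays, array weights gave 18 HSC surface genes lower, 18 G2/M genes higher and 20 T- and NK-cell markers higher. With only the groups compared, 8 interferon effectors rose, 10 immediate-early and 1 HSC surface gene fell, and 0 G2/M and 0 T- and NK-cell genes rose. Without dim genes 4 G2/M and 3 T- and NK-cell genes rose, and the trended prior gave 3 of the latter. Leaving out single arrays gave 22 to 44 interferon effectors, 13 to 20 immediate-early genes, 4 to 18 HSC surface genes, 0 to 14 G2/M genes and 0 to 18 T- and NK-cell markers. The setting with only the groups compared has fewer arrays from which to estimate the spread; the cause of the other changes was not tested. Where 1 array of a group remained, it was assumed to vary like the other groups.

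The replicate block gave 518 genes over 11 arrays and 1907 over 10, and ended 7 calls of the 104 named genes. Over the 104 named genes, no called value changed sign under these settings. With each gene counted once in the 11-array fit and once in the 10-array fit, only the groups compared ended 51 calls and cyclic loess 4, while array weights added 20. The median difference of ATRA+pIC from PBS over all genes was -0.009 as deposited and 0.001 after loess scaling. With 3 arrays or fewer per group, a missed call does not show that values were alike.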
